A study of Homo sapiens with 6 samples.

Results

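The genes described here encode the chain from dopamine receptors through heterotrimeric G proteins and adenylyl cyclases to protein kinase A (PKA). They were chosen by symbol, from the G protein α, β and γ subunits, the adenylyl cyclases, the catalytic and regulatory subunits of PKA and the dopamine receptors. Of 50 genes that fit, 48 were measured (GNG14 and ADCY6 were not), out of 17687 measured genes in all, and each had 1 value per array. They comprise 13 Gα, 5 Gβ and 10 Gγ genes, 9 adenylyl cyclases, 6 PKA subunits and 5 dopamine receptors. The cells were SH-SY5Y, a subcloned human neuroblastoma line of sympathetic origin, measured on whole-transcript arrays of 1 colour. The group labelled 15EN (3 arrays) received the compound, which the treatment text gives at 15 µM and the series title names as eurycomanone, from the root of Eurycoma longifolia. The group labelled VC (3 arrays) is the vehicle control. The labels give both groups the same differentiation with all-trans retinoic acid (atRA) over 96 h, so no undifferentiated cells serve as a comparison. Each group has 1 array at each of passages 33, 34 and 35 per the titles, although every description names passage 33.

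A G protein-coupled receptor that binds its ligand makes a Gα subunit exchange GDP for GTP and part from its Gβγ dimer. Gαs and its olfactory and striatal relative Gαolf stimulate adenylyl cyclase, members of the Gαi and Gαo family restrain it, Gαq acts through phospholipase C, and Gα12 and Gα13 act through guanine nucleotide exchange factors. Cyclic AMP made by adenylyl cyclase binds the regulatory subunits of PKA and releases the catalytic subunits. D1-type dopamine receptors act through Gαs or Gαolf, and D2-type receptors through Gαi and Gαo.

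Values are log2 signals as deposited, and differences are 15EN minus VC with the standard error (SE) of the limma fit over all genes. Adjusted p-values are from limma with Benjamini-Hochberg adjustment over 17687 genes, a gene passed below 0.05, and errors beside means are SDs over 3 arrays. A gene is called dim on an array when its signal lay below the 90th percentile of that array's negative controls (7.41 to 7.51 in 15EN and 7.55 to 7.99 in VC). The size of a difference is uncertain where 1 of the groups was dim. The titles give the 3 samples of a group different passages, but every description names the same passage, so separate culture is not certain. The p-values therefore measure the spread between arrays, which may be technical. Fewer cells of a kind cannot be told apart from less RNA per cell. The third 15EN array stood apart from the other arrays (-56.7 on the second principal component, against -0.361 to 20.4), so results are also given without it. Of the 15 members that passed, 8 lay nearest the VC mean on that array, against 58.1% of all genes that passed. The hybridization controls, which are only 4 probe sets, were dimmer in 15EN (mean 10.43) than in VC (11.3). Scaling arrays to equal controls added 0.87 to every difference and moved the median gene to 0.88, against 0.01 as deposited, so directions below are relative to the median gene, and members that passed and then turn against 0 are named.

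Of the 48 members, 3 were higher and 12 lower in 15EN. In the background of all genes 12.3% were higher and 9.09% lower, 21.4% together. By class, the counts were 0 higher and 5 lower of 13 Gα genes, 0 and 1 of 5 Gβ genes, 1 and 3 of 10 Gγ genes, 0 and 2 of 9 adenylyl cyclases, 2 and 1 of 6 PKA subunits, and 0 and 0 of 5 dopamine receptors. At an unadjusted p under 0.05 there were 22 of 48 members, none of them a dopamine receptor, against 5697 of 17687 genes. Median log2 differences were -0.51 for Gα, -0.68 for Gβ, -0.35 for Gγ, -0.16 for adenylyl cyclases, 0.14 for PKA and 0.09 for dopamine receptors, against 0.01 over all genes. On arrays scaled to the hybridization controls, each of these class medians was above 0 (0.18 to 1.01), and the median gene was at 0.88. The 15EN arrays lay wholly below the VC arrays in 19 members and wholly above in 5, against 16.6% and 19.7% of all genes (24 of 48 members without overlap in either direction, against 36.3%). Of the 48 members, 21 were dim on all 6 arrays, and 1 of those passed, against 7779 of 17687 genes, of which 337 passed. Without the third 15EN array there were 4 higher and 14 lower members, and without any other array 1 or 2 higher and 8 to 10 lower. Over all genes there were 3227 higher and 2240 lower without the third 15EN array, and 1301 to 1498 higher and 970 to 1213 lower without any other array, against 2179 and 1608 with all arrays.

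**Figure D1:**
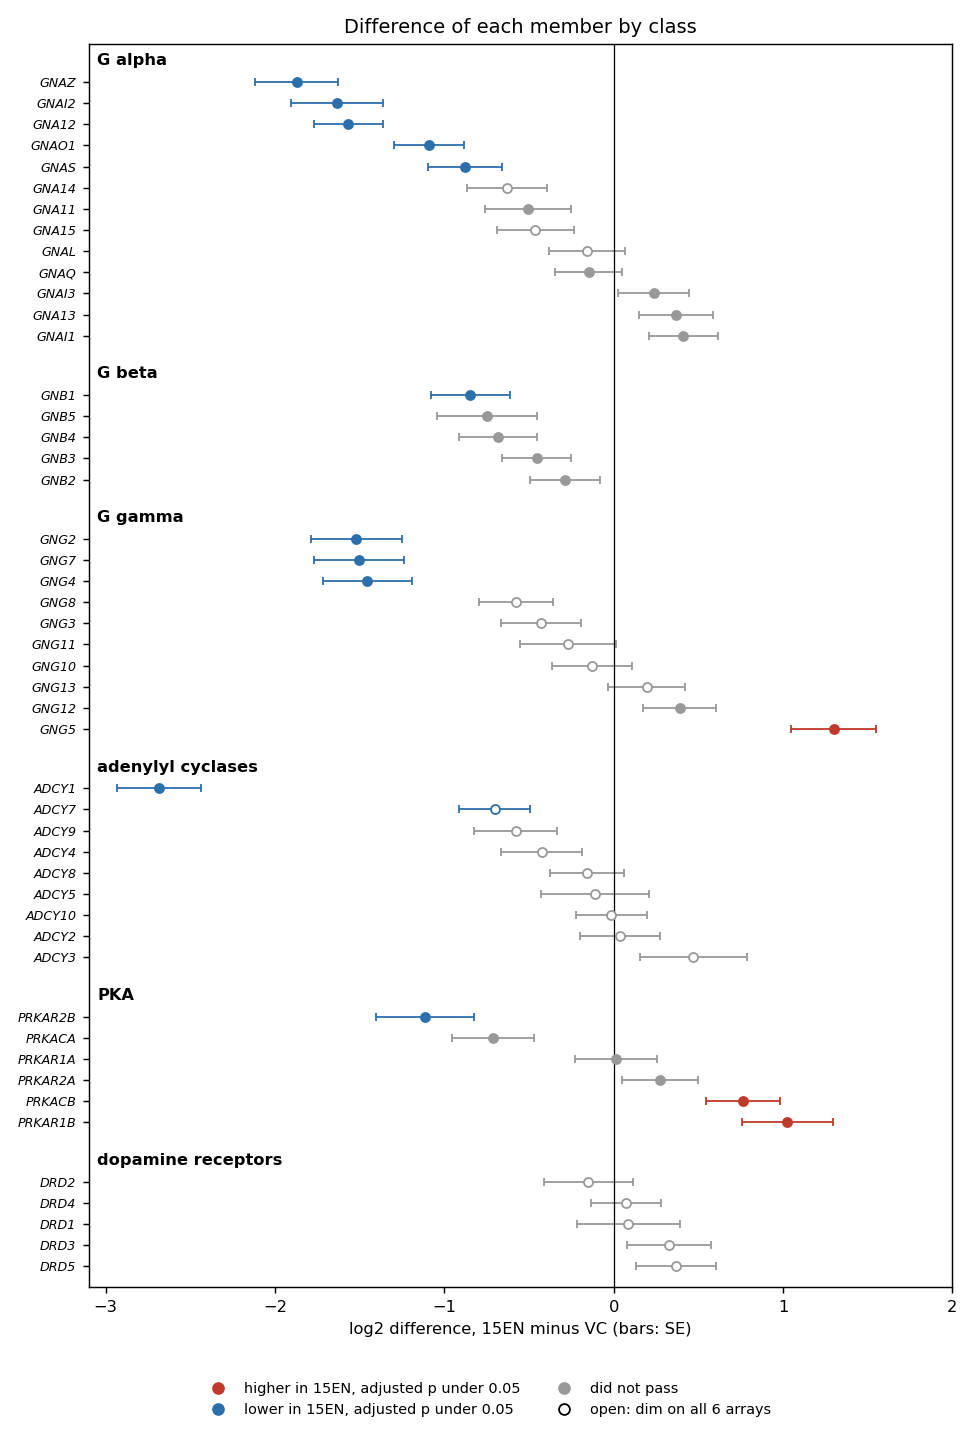
Log2 difference (15EN minus VC, x axis) of the 48 members grouped by class, with points for the limma estimate, bars for its SE, and open points for members dim on all 6 arrays. The 5 Gβ genes lie to the left of 0, PKA subunits lie on either side, and the 5 dopamine receptors are open and did not pass. After scaling to the hybridization controls every point moves right by 0.87, which puts all 5 Gβ genes above 0.

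Promoter windows show which members carry the cyclic AMP response element (CRE), the site bound by CREB, a transcription factor that PKA phosphorylates. RefSeq windows (GRCh38.p14, 250 bases before to 50 after a start) were found for 41 of the 48 members. The CRE, searched as TGACGTCA, was present in any window of 3 of these 41 genes, against 3.05% of 14250 measured genes with a window. The 3 genes were GNAO1 and GNG7, which fell, and PRKAR1A, which did not pass. The stretches shown hold these 3 elements and, for the member with the largest fall, the start region of ADCY1, where only the shorter TGACG occurs. They run 5′ to 3′ on the gene's strand and end before the start of the window used, with TGACG and TGACGTCA matches on either strand in capitals. PRKAR1A has several starts, and the element shown lies just after another of them.
ADCY1, chr7:45573990-45574139, + strand: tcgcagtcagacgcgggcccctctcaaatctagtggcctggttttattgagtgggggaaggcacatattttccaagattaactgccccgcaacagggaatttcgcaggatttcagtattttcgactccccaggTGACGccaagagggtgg
GNAO1, chr16:56191239-56191388, + strand: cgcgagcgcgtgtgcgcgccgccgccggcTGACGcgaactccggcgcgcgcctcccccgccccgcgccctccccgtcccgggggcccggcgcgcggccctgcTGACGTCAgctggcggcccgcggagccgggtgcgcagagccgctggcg
GNG7, chr19:2702795-2702944, - strand: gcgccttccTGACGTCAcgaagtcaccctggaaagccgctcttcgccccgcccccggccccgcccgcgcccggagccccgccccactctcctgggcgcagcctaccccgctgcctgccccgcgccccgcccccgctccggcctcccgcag
PRKAR1A, chr17:68512280-68512429, + strand: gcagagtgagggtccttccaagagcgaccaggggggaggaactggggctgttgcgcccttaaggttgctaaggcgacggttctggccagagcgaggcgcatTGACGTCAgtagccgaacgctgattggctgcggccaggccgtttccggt

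Each window was searched on both strands, and TGACGTCA always holds TGACG on both. TGACG was found in 8 of the 11 lower members with a window, in 2 of 3 higher members and in 10 of 27 that did not pass, against 34.8% of measured genes. The SP1 box GGGCGG was found in 9 of 11 lower, 3 of 3 higher and 21 of 27 other members, against 65.4%. The AP-1 pattern TGANTCA was found in 5 of 11 lower, 1 of 3 higher and 2 of 27 other members, against 8.19%, and the E-box CACGTG in 3 of 11, 0 of 3 and 5 of 27, against 10.8%. Genes with several starts have several windows, and the 11 lower members hold 24 windows in all, against 20090 windows for the 14250 measured genes. Counted by window, TGACG was in 11 of the 24, a share of 45.8%, against 27.9% of the windows of measured genes. By the same count TGANTCA was in 5 of 24, against 6.23%, and GGGCGG in 10 of 24, a share of 41.7%, against 56.9%. CACGTG was in 3 of 24, against 8.21%. An element where 2 windows of a gene overlap counts in both, as in ADCY1. A match describes the letters only.

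Among the Gα genes, those of the Gαi and Gαo family moved unequally. GNAI2, whose product Gαi2 inhibits adenylyl cyclase, had log2 signals of 11.50, 11.98 and 12.12 in 15EN, against 13.05, 13.56 and 13.90 in VC. The groups did not overlap, and the fall was 1.64 ± 0.27 on the log2 scale (adjusted p = 0.00236). GNAO1 encodes Gαo, the abundant inhibitory Gα of neurons, and gave 10.68, 11.01 and 10.95 in 15EN, against 11.82, 12.04 and 12.05 in VC. Every 15EN array was below every VC array, with a difference of -1.09 ± 0.21 (adjusted p = 0.00463). GNAZ encodes Gαz, a Gαi relative that pertussis toxin does not modify. It gave 6.64, 7.26 and 6.56 in 15EN, dim on all 3 arrays, against 8.51, 8.72 and 8.85 in VC (difference -1.87 ± 0.24, adjusted p = 0.000699), the lowest of the Gα differences. By contrast GNAI1, for Gαi1, gave 16.21, 16.45 and 16.62 in 15EN, against 15.98, 16.03 and 16.04 in VC. Its 15EN arrays lay above the VC arrays, but the difference of 0.41 ± 0.21 did not pass (adjusted p = 0.203, 95% interval -0.05 to 0.87). GNAI3, for Gαi3, gave 14.07, 13.77 and 13.80 in 15EN, against 13.81, 13.54 and 13.58 in VC, with overlap (difference 0.24 ± 0.21, adjusted p = 0.502). GNAI2, GNAO1 and GNAZ passed without any 1 array. With both arrays of a replicate number left out, GNAZ always passed, GNAI2 failed without replicate 2, and GNAO1 failed without replicate 1 or 2. On arrays scaled to the hybridization controls GNAI2 (-0.77, adjusted p = 0.0449) and GNAZ (adjusted p = 0.00811) still passed, and GNAO1 (-0.22, adjusted p = 0.426) did not.

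Among the stimulatory Gα genes and those of the Gα12 and Gαq classes, GNAS and GNA12 passed, both lower. GNAS, for Gαs, gave 14.40, 14.15 and 13.88 in 15EN, against 15.06, 14.89 and 15.12 in VC. All 15EN arrays lay below the VC arrays (difference -0.88 ± 0.22, adjusted p = 0.0164), and after scaling to the hybridization controls the difference was -0.01. It failed when VC replicate 1 (adjusted p = 0.0607) or 3 (0.0706) was left out. The GNAS locus makes several transcripts from separate starts, which 1 probe set does not tell apart. GNAL, for Gαolf, was dim on all 6 arrays and overlapped between groups, with 6.22, 5.82 and 5.89 in 15EN, against 6.13, 5.91 and 6.37 in VC (adjusted p = 0.698). GNA12, for Gα12, gave 10.34, 10.57 and 10.40 in 15EN, against 12.14, 11.91 and 11.95 in VC. Its groups did not overlap (difference -1.57 ± 0.20, adjusted p = 0.000668, and -0.70 with adjusted p = 0.0224 after that scaling). Its relative GNA13 differed by 0.37 ± 0.22 (adjusted p = 0.290, 95% interval -0.12 to 0.85), with 13.76 to 14.30 in 15EN and 13.63 to 13.78 in VC. In the Gαq class no member passed. GNAQ gave 12.71, 12.82 and 12.93 in 15EN, against 13.04, 12.94 and 12.93 in VC (difference -0.15 ± 0.20). GNA11 gave 11.20, 12.09 and 11.51 in 15EN, against 12.24, 12.11 and 11.97 in VC (difference -0.51 ± 0.26). Both overlapped between groups (adjusted p = 0.682 for GNAQ and 0.208 for GNA11). The dim genes GNA14 and GNA15 differed by -0.63 ± 0.23 and -0.46 ± 0.23 (adjusted p = 0.0853 and 0.195).

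**Figure D2:**
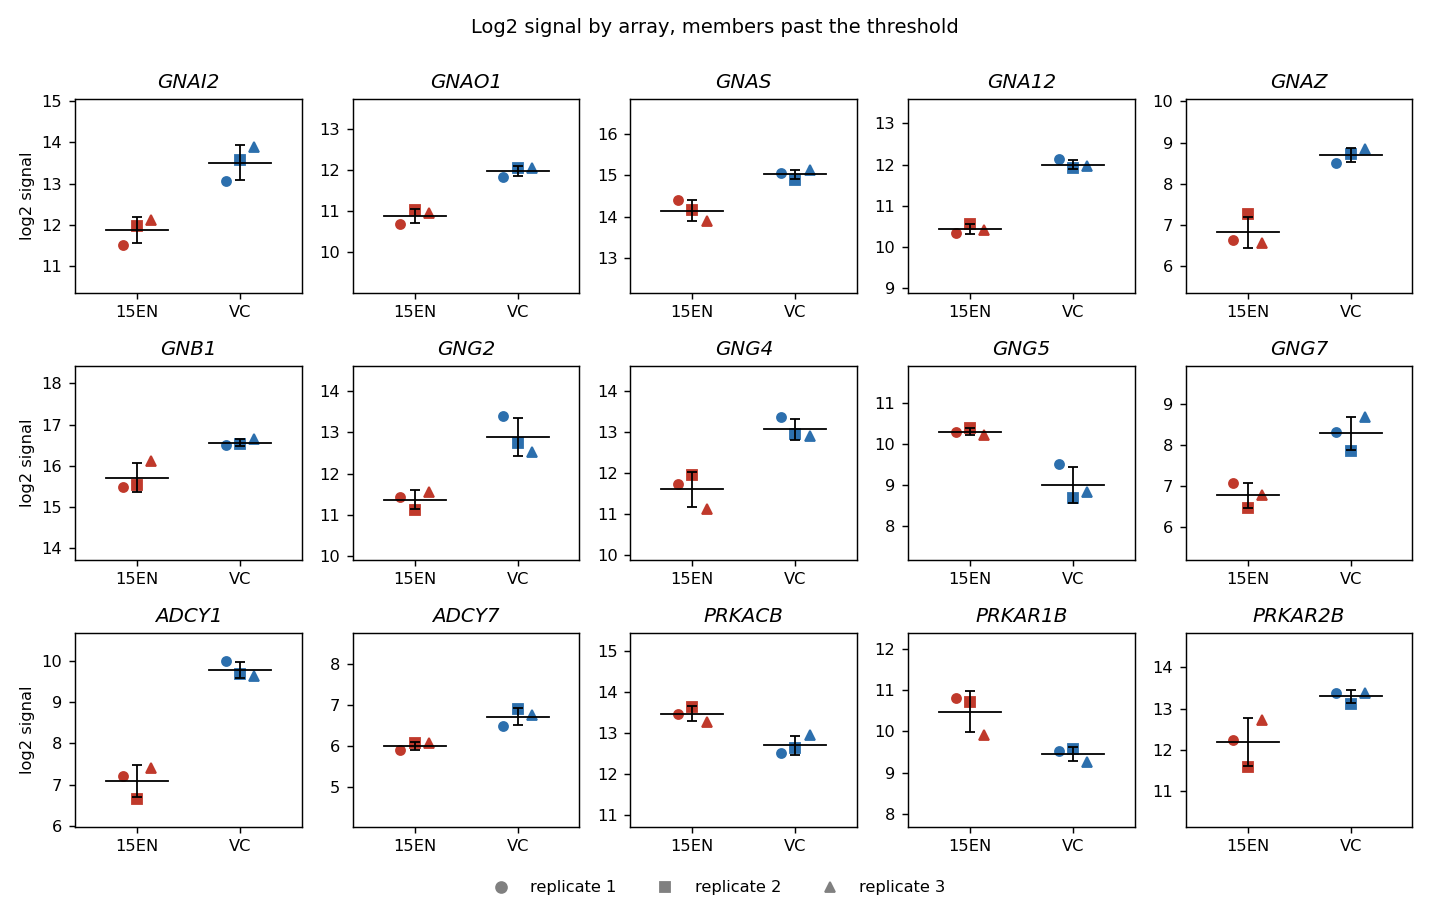
Log2 signal (y axis, every panel spanning an equal range) of the 15 members that passed, by group (15EN left, VC right), with symbols for replicates 1 to 3, lines for means and bars for SDs over 3 arrays. In every panel the 15EN points lie wholly above or wholly below the VC points. GNG5, PRKACB and PRKAR1B are the 3 with 15EN above. Against 0, GNB1 and ADCY7 turn to 0.02 and 0.17 after scaling to the hybridization controls.

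All 5 Gβ genes had negative differences as deposited, and 1 passed. GNB1, for Gβ1, a widely used partner of Gγ, gave 15.48, 15.54 and 16.12 in 15EN, against 16.50, 16.52 and 16.66 in VC. The 15EN replicate 3 was nearest to the VC arrays, which it did not reach (difference -0.85 ± 0.23, adjusted p = 0.0257, and 0.02 after scaling to the hybridization controls). The call was lost without any 1 of the other 5 arrays (adjusted p = 0.0701 to 0.0982), and without 15EN replicate 3 the difference was -1.05 (adjusted p = 0.00238). GNB4 gave 11.53 to 12.06 in 15EN, against 12.21 to 12.55 in VC, and missed the threshold (difference -0.68 ± 0.23, adjusted p = 0.0578). GNB5, whose product pairs with RGS proteins of the RGS7 family, differed by -0.75 ± 0.30 (adjusted p = 0.105, and 0.0450 with a block for the replicate number). GNB5 was dim on 2 arrays of 15EN and 1 of VC. Without 15EN replicate 3, GNB4 (-0.85, adjusted p = 0.00914) and GNB5 (-0.99, adjusted p = 0.0168) passed. GNB2 gave 13.22, 13.50 and 13.18 in 15EN, against 13.61, 13.47 and 13.68 in VC, with overlap (difference -0.29 ± 0.21, adjusted p = 0.395). GNB3 differed by -0.45 ± 0.20 (adjusted p = 0.152). After scaling to the hybridization controls all 5 Gβ differences were above 0 (0.02 to 0.58), and GNB2 passed there as higher (adjusted p = 0.0482).

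The Gγ genes held both the strongest falls of the βγ dimer and 1 rise. GNG2 gave 11.43, 11.11 and 11.56 in 15EN, against 13.41, 12.73 and 12.51 in VC (difference -1.52 ± 0.27, adjusted p = 0.00323). GNG4 gave 11.74, 11.95 and 11.13 in 15EN, against 13.36, 12.94 and 12.89 in VC (difference -1.46 ± 0.26, adjusted p = 0.00354). GNG7, whose product in mouse striatum is needed for the Gαolf heterotrimer, gave 7.06, 6.45 and 6.78 in 15EN, against 8.31, 7.85 and 8.66 in VC (difference -1.51 ± 0.27, adjusted p = 0.00319). In these 3 genes the groups did not overlap, and GNG7 was dim on all 15EN arrays. GNG5 went the other way, with 10.30, 10.40 and 10.22 in 15EN, against 9.51, 8.69 and 8.83 in VC (difference 1.30 ± 0.25, adjusted p = 0.00489). GNG5 has near-identical copies elsewhere in the genome, so its signal may be shared with them. These 4 calls held without any 1 array. With both arrays of a replicate number left out, GNG7 always passed, GNG2 and GNG5 failed without replicate 2, and GNG4 failed without replicate 1. After scaling to the hybridization controls GNG2 (-0.65), GNG4 (-0.59) and GNG7 (-0.64) narrowly missed the threshold (adjusted p = 0.0555 to 0.0649). GNG12, measured at 13.93 to 14.39 in 15EN and at 13.81 to 13.85 in VC, lay above VC on all 3 arrays but did not pass (difference 0.39 ± 0.21, adjusted p = 0.248). The remaining 5, GNG3, GNG8, GNG10, GNG11 and GNG13, were dim on all 6 arrays, with differences from -0.58 to 0.19 that did not pass. The read-through gene DNAJC25-GNG10, which shares sequence with GNG10, was named after its values were seen and differed by 0.68 ± 0.24 (adjusted p = 0.0703).

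The largest difference among all 48 members was in ADCY1, the calcium- and calmodulin-stimulated adenylyl cyclase of neurons, whose start region is printed above. Its log2 signal was 7.20, 6.66 and 7.41 in 15EN, against 10.00, 9.68 and 9.65 in VC. The groups were more than 2 log2 units apart at their nearest arrays, and the difference was -2.69 ± 0.25 (adjusted p = 0.000197), a 6.43-fold lower signal. ADCY1 was dim on all 3 arrays of 15EN and on 0 of 3 in VC, so the size is uncertain. It ranked at 54 of 17687 genes by p, passed without any 1 array (-2.84 to -2.47) and stayed lower after scaling to the hybridization controls (-1.82, adjusted p = 0.000231). The other 8 measured cyclases were dim on all 6 arrays. ADCY7 gave 5.89, 6.06 and 6.06 in 15EN, against 6.48, 6.89 and 6.74 in VC, and passed at -0.70 ± 0.21 (adjusted p = 0.0366), while its difference after that scaling was 0.17 and missed the threshold. It failed without any 1 array except 15EN replicate 3 (adjusted p = 0.0527 to 0.151), where it passed (0.0242), and it failed with a trended and robust prior (0.0582). ADCY9 differed by -0.58 ± 0.24 (adjusted p = 0.129) without passing. ADCY3 gave 6.72, 7.29 and 6.002 in 15EN, against 5.97, 6.47 and 6.15 in VC, with overlap (difference 0.47 ± 0.32, adjusted p = 0.356, and 0.81 with adjusted p = 0.0297 without 15EN replicate 3). ADCY8, the other calcium-stimulated cyclase of the brain, overlapped between groups, with 3.81, 4.004 and 4.20 in 15EN, against 4.23, 4.33 and 3.93 in VC. ADCY2, ADCY4, ADCY5 and ADCY10, the soluble bicarbonate-sensitive cyclase, differed by -0.43 to 0.04 and did not pass.

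Of the PKA subunits, PRKACB and PRKAR1B rose and PRKAR2B fell, while PRKACA, PRKAR1A and PRKAR2A did not pass. None of the 6 was dim on any array. PRKACB, for the catalytic subunit Cβ, gave 13.48, 13.64 and 13.28 in 15EN, against 12.52, 12.64 and 12.95 in VC, without overlap (difference 0.76 ± 0.22, adjusted p = 0.0311). PRKACA, for Cα, gave 12.49, 12.82 and 12.13 in 15EN, against 13.29, 13.33 and 12.96 in VC. Its arrays did not overlap either, with 15EN below, but it missed the threshold (difference -0.71 ± 0.24, adjusted p = 0.0597) while it passed with a block for the replicate number (0.0379), after quantile normalization (0.0224) and when 15EN replicate 2 was left out (0.0441). Of the regulatory genes, PRKAR1B, for the neuronal RIβ, gave 10.81, 10.72 and 9.92 in 15EN, against 9.52, 9.58 and 9.27 in VC (difference 1.03 ± 0.27, adjusted p = 0.0208). PRKAR2B, for RIIβ, gave 12.24, 11.58 and 12.73 in 15EN, against 13.39, 13.12 and 13.37 in VC (difference -1.11 ± 0.29, adjusted p = 0.0203). In both genes 15EN replicate 3 was the array nearest to VC. PRKAR1A, for RIα, gave 14.02, 13.79 and 13.32 in 15EN, against 13.45, 13.89 and 13.75 in VC (difference 0.01 ± 0.24, adjusted p = 0.980, 95% interval -0.53 to 0.56). PRKAR2A, for RIIα, gave 9.14, 9.08 and 8.73 in 15EN, against 8.57, 8.59 and 8.98 in VC (difference 0.27 ± 0.22, adjusted p = 0.467). Both overlapped between groups.

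The 3 PKA calls rested on few arrays. PRKAR1B and PRKAR2B failed without any 1 array except 15EN replicate 3 (adjusted p = 0.0604 to 0.0909 and 0.0511 to 0.0785). Without 15EN replicate 3 their differences were 1.31 (adjusted p = 0.000847) and -1.39 (0.00151). PRKACB failed when replicate 1 or 2 of either group was left out (adjusted p = 0.0816 to 0.119). It also failed after quantile normalization (0.66, adjusted p = 0.0537) or with the trend against brightness removed (0.64, adjusted p = 0.0570). With arrays scaled to the hybridization controls PRKACB (1.63) and PRKAR1B (1.9) passed, PRKAR2B (-0.24) did not, and PRKACA turned to 0.16.

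No dopamine receptor passed. All 5 were dim on all 6 arrays and the groups overlapped in each. DRD1 gave 4.73 to 5.73 in 15EN, against 4.63 to 5.44 in VC (difference 0.09 ± 0.30, adjusted p = 0.894, 95% interval -0.59 to 0.76). DRD2 gave 5.60 to 6.37 in 15EN, against 5.78 to 6.30 in VC (difference -0.15 ± 0.26, adjusted p = 0.763, 95% interval -0.73 to 0.43). DRD3, DRD4 and DRD5 differed by 0.33, 0.07 and 0.37 (adjusted p = 0.330 to 0.864). Of the 7779 genes dim on all 6 arrays 337 passed (4.33%), against 34.8% of the 9908 other genes. Calls were thus rarer among dim genes, and the missed threshold does not show that the receptors were absent or alike.

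Related members were then set against each other within each array, which removes any scaling of whole arrays. The 11 ratios were chosen with results of these data known, so that 9 did not overlap between the groups is a description. The log2 ratio of GNAI2 to GNAI1 was -4.71, -4.47 and -4.50 in 15EN, against -2.93, -2.46 and -2.14 in VC, a change of -2.05. The ratio of PRKACB to PRKACA was 0.99, 0.82 and 1.15 in 15EN, against -0.77, -0.69 and -0.01 in VC, a change of 1.48. The ratios give no level of 1 gene against another, since probe sets differ in brightness. PRKAR1B over PRKAR1A changed by 1.01 and PRKAR2B over PRKAR2A by -1.38. ADCY1 over ADCY8 changed by -2.53 and over ADCY3 by -3.16, although the partner genes were dim. GNAI2 over GNAI3 changed by -1.87, GNAO1 over GNAI1 by -1.50 and GNAS over GNAL, which was dim on all 6 arrays, by -0.72. Each of these 9 had the smallest exact two-sided permutation p that 3 against 3 arrays can give (0.1, and 0.122 adjusted over 11 ratios), so none could pass 0.05. GNAQ over GNA11 (0.36, exact p = 0.4) and GNB1 over GNB2 (-0.56, exact p = 0.2) overlapped between groups. With same-numbered arrays taken as pairs, the exact sign-flip permutation p was 0.25, the smallest that 3 pairs can give, for every ratio but GNAQ over GNA11 (0.5).

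**Figure D3:**
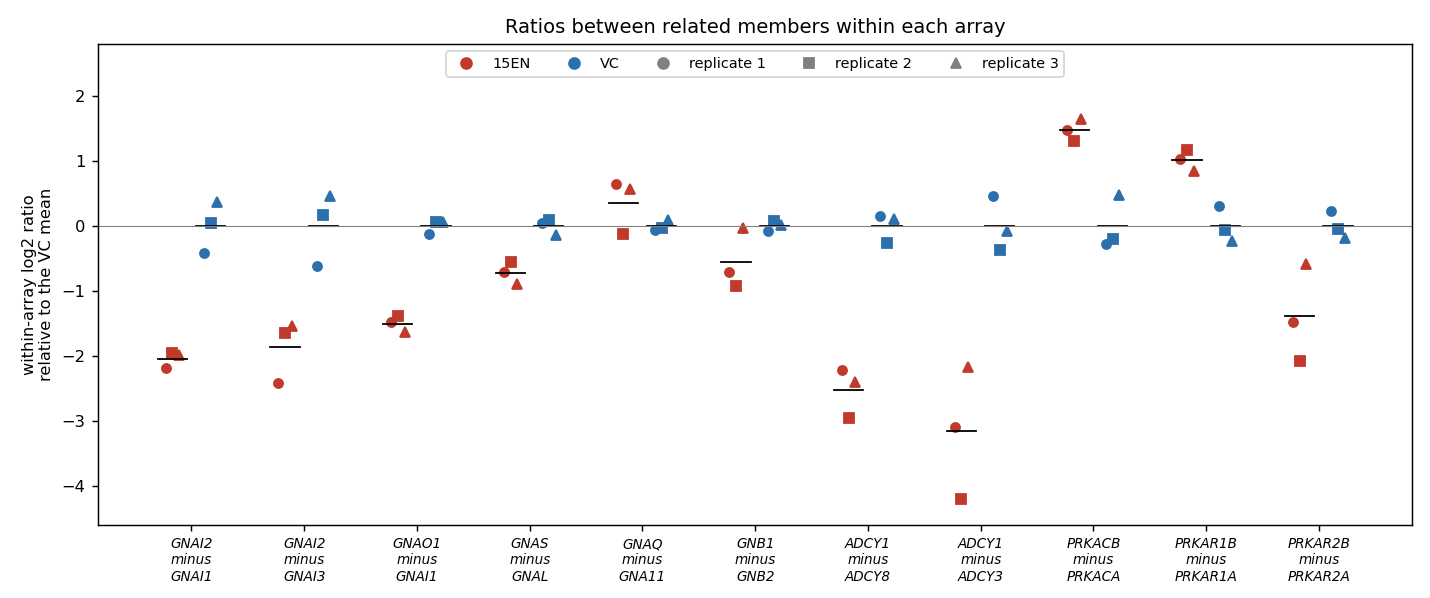
Log2 ratio between related members within each array, relative to the VC mean of that ratio (y axis), for 11 pairs, with 15EN left of VC, symbols for replicates 1 to 3 and lines for means. Ratios of ADCY1, GNAI2, GNAO1, GNAS and PRKAR2B lie below those of VC in all 3 15EN arrays. PRKACB over PRKACA and PRKAR1B over PRKAR1A lie above.

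Other genes of the pathway were counted in 8 lists written from textbook knowledge, with earlier results of these data known. As background, 12.3% of all genes were higher and 9.09% lower. Of 15 measured cyclic AMP phosphodiesterases, which break cyclic AMP down, 3 were higher and 1 lower (median difference 0.14). PDE4D gave 7.62, 8.60 and 7.94 in 15EN, against 5.56, 6.77 and 6.63 in VC, where it was dim on all arrays (difference 1.74 ± 0.36, adjusted p = 0.00652). PDE3A (1.28) and PDE8B (1.08, dim on all 6 arrays, with overlapping groups) also rose. PDE4B fell (-1.25) and was dim on all 3 15EN arrays. These 3 calls were lost without 4, 5 and 2 of the 6 arrays when each was left out in turn. Of 17 anchoring proteins and inhibitors of PKA, 0 were higher and 1 was lower (median 0.04). This was the inhibitor PKIA (-0.86 ± 0.28, adjusted p = 0.0492, and 0.01 after scaling to the hybridization controls), dim on all 3 15EN arrays. Its call held when 15EN replicate 3 was left out and failed when any other array was. It also failed after quantile normalization (0.0514), median centring (0.0531) or trend removal (0.0510) and with the robust prior (0.0592).

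Of 27 measured RGS proteins and Gα modulators, which mostly speed GTP hydrolysis by Gα, 2 were higher and 4 lower (median -0.11). GPSM2, which binds Gαi and orients the mitotic spindle, differed by -1.69 ± 0.25 (adjusted p = 0.00131). It gave 7.19, 7.05 and 7.84 in 15EN, dim on 2 arrays, against 9.18, 8.94 and 9.04 in VC. RGS7, which acts with Gβ5 on Gαo, differed by 1.69 ± 0.25 (adjusted p = 0.00137) while dim on all 6 arrays. RGS12 (-0.93, adjusted p = 0.0119) and RGS8 (dim, adjusted p = 0.0240) fell, and each failed when some single arrays were left out. Of 9 GPCR kinases and arrestins, 0 were higher and 2 lower (median -0.09). GRK3, a receptor kinase recruited by Gβγ, gave 11.46, 10.78 and 11.17 in 15EN, against 13.61, 13.34 and 13.20 in VC (difference -2.25 ± 0.24, adjusted p = 0.000304), and passed without any 1 array. ARRB1, for β-arrestin, differed by -0.93 ± 0.24 (adjusted p = 0.0208), and failed without 15EN replicate 1 or VC replicate 2 or 3.

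Of 15 effectors of Gαq, Gα12, Gα13 and Gβγ, 1 was higher and 3 lower (median -0.23). PLCB3, a phospholipase C that Gαq and Gβγ activate, gave 8.25, 8.36 and 8.23 in 15EN, against 9.38, 9.37 and 9.47 in VC (difference -1.12 ± 0.19, adjusted p = 0.00289). ARHGEF12 (-1.14) and ARHGEF11 (-0.91, dim on 2 arrays of 15EN and 1 of VC), exchange factors downstream of Gα12 and Gα13, fell. However, ARHGEF12 failed without VC replicate 2 or 3, and ARHGEF11 without 15EN replicate 1 or any VC array. The calcium release channel gene ITPR1 rose (1.08, dim on all 3 VC arrays), and failed without VC replicate 1 or 2. Of 37 other Gαs- and Gαi-coupled receptors, 2 were higher and 2 lower (median -0.06), and 26 were dim on all 6 arrays. LPAR1, a lysophosphatidic acid receptor, fell by 1.97 ± 0.27 (adjusted p = 0.000863) and the chemokine receptor CXCR4 by 1.67 ± 0.30 (adjusted p = 0.00347). The cannabinoid receptor CNR1 gave 11.42, 10.80 and 8.88 in 15EN, against 7.90, 7.63 and 8.10 in VC (difference 2.49 ± 0.52, adjusted p = 0.00724), with 15EN replicate 3 nearest to VC. PTGER3 (0.76, adjusted p = 0.0431) failed with a block for the replicate number, and when any array but VC replicate 1 was left out.

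In the list of cyclic AMP-responsive factors and coactivators, which also held RAPGEF3 and PPP1R1B, 2 of 9 genes were higher and 0 lower (median 0.57). They were CREBBP, a general coactivator (1.10 ± 0.21, adjusted p = 0.00449), and CREB3, a membrane-bound member of the CREB family (0.96 ± 0.23, adjusted p = 0.0134, failing when 15EN replicate 1 or either of VC replicates 1 and 2 was left out). Of 17 known CREB targets, 4 were higher and 1 lower (median 0.44), and without 15EN replicate 3 there were 7 higher, in a fit that called 3227 of 17687 genes higher. EGR1 gave 16.35, 17.22 and 14.90 in 15EN, against 13.58, 13.45 and 13.14 in VC (difference 2.77 ± 0.47, adjusted p = 0.00267). NR4A3 (2.30 ± 0.42, dim on all 3 VC arrays) and VGF, a secreted neuropeptide precursor (2.10 ± 0.38), also rose. SCG2, a granin of secretory vesicles, gave 8.77, 9.78 and 8.43 in 15EN, against 11.47, 11.70 and 12.17 in VC (difference -2.79 ± 0.34, adjusted p = 0.000518). EGR1 and NR4A3 also respond to other signals than cyclic AMP. With arrays scaled to the hybridization controls, 55 of the 70 negative differences in these lists turned positive, PKIA and RGS3 (0.12) among the calls. The falls of PDE4B, RGS8, RGS12, ARRB1, PLCB3, ARHGEF11 and ARHGEF12 no longer passed, while those of GPSM2, GRK3, LPAR1, CXCR4 and SCG2 did.

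**Figure D4:**
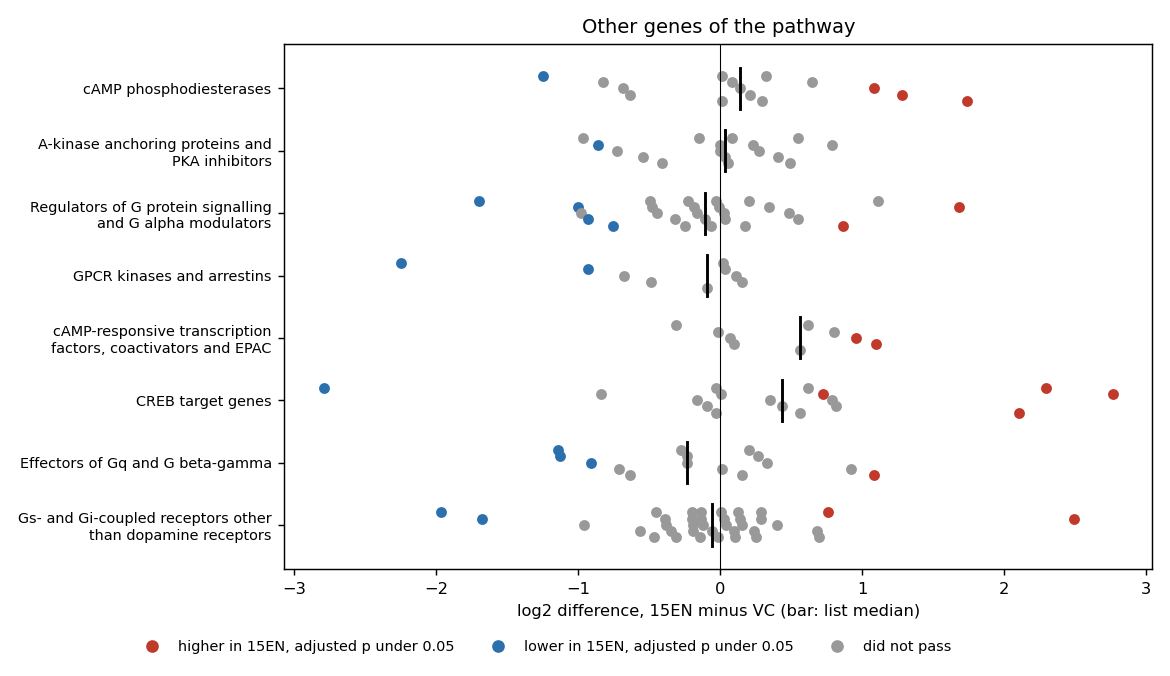
Log2 difference (15EN minus VC, x axis) of each measured gene in 8 lists of other pathway genes, with points coloured by the limma test and a bar at each list's median. List medians lie between -0.23 and 0.57, and most lists have called genes on both sides of 0. After scaling to the hybridization controls every point and median moves right by 0.87.

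Cell type markers were read beside these results, with 12.3% of all genes higher and 9.09% lower as background. Of 13 measured markers of sympathetic neuroblastoma cells, 0 were higher and 8 lower, and the log2 of their summed signal was 15.81 to 16.20 in 15EN and 16.82 to 17.25 in VC. Of the defining transcription factors of this lineage, PHOX2A (-0.88, adjusted p = 0.0169) and ISL1 (-1.19, adjusted p = 0.00816) fell. GATA2 lay below VC on all 15EN arrays and missed the threshold (adjusted p = 0.0518), and HAND2 (0.09) and GATA3 (0.07) overlapped between groups. TH and CHGA were dim on all 6 arrays. Of 10 markers of mesenchymal neuroblastoma cells, 2 were higher and 3 lower, with sums of 15.56 to 16.07 in 15EN and 16.67 to 16.76 in VC. FOSL1 (3.81, adjusted p = 0.000343, dim on 1 VC array) and YAP1 (1.43, adjusted p = 0.00118, dim on 2 VC arrays) rose. VIM (-0.95, adjusted p = 0.0106), SNAI2 (-0.73, adjusted p = 0.0330) and NOTCH2 (-1.51, adjusted p = 0.00372) fell. Of 7 fibroblast markers, 0 were higher and 2 lower, with sums of 14.45 to 14.89 in 15EN and 14.45 to 14.83 in VC. All 6 measured Schwann cell and glial markers were dim on all 6 arrays (sums of 7.78 to 7.95 in 15EN and 7.70 to 8.02 in VC). So were 4 of 5 endothelial and immune markers, CD68 being the exception (sums of 9.16 to 10.00 in 15EN and 9.24 to 10.15 in VC). After scaling to the hybridization controls, 0 of the 8 lower sympathetic markers had a positive difference, and the lower calls SNAI2 (0.14, mesenchymal) and THY1 (0.0767, fibroblast) did. The part of the neuroblastoma markers in the differences of the G protein genes was not tested.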

How the data were processed

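The authors deposited 1 table of log2 signals, 1 value per probe set and array, made with the Transcriptome Analysis Console per the submitters' processing notes. The sources used here name no version, normalization or genome build, and the log2 scale was judged from the values (2.20 to 18.8). Of 21448 gene probe sets, 17709 carried 1 symbol in the platform annotation, and the probe set with the highest mean was kept per gene (22 set aside). These values were fitted with limma 3.58.1 (R 4.3.3), with group as the only term. No filter on dim genes was applied. Depth has no counterpart on arrays, and their number limits the precision. The members, lists, pairs, motifs and tests were chosen with earlier results of these data known. Values by array are given for members that passed and for members of pairs, with the rest as ranges or differences, and up to 4 genes of smallest p per list are named. Deviations of same-numbered arrays from their group means correlated at 0.229, 0.162 and 0.133, so the shared passage numbers were taken to pair the arrays. The limma p-values ignore this pairing except where a block is named, and a block for the replicate number was tried as an alternative. The others were 4 normalizations, a filter, array weights, the mean of probe sets, a trended and robust prior, and arrays left out singly or by passage. The procedure was tested on simulated data. Protein sequences were not used here.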

Additional observations from a re-analysis of the deposited data

How the results depend on the processing

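Scaling arrays to the hybridization controls moved the counts most, with 12150 genes higher and 437 lower, and 23 members higher and 4 lower. Members higher and lower there were 5 and 3 (Gα), 1 and 0 (Gβ), 4 and 0 (Gγ), 4 and 1 (adenylyl cyclases), 4 and 0 (PKA), with 5 dopamine receptors higher. Medians there were 0.59 for all members, 0.36 for Gα, 0.18 for Gβ, 0.52 for Gγ, 0.71 for adenylyl cyclases, 1.01 for PKA and 0.95 for dopamine receptors. Among the members and PKIA, GRK4 and GRK6, differences that turned positive there were GNAL 0.71, GNAQ 0.72, GNA11 0.36, GNA14 0.24, GNA15 0.41, GNB1 0.0215, GNB2 0.58, GNB3 0.41, GNB4 0.18, GNB5 0.12, GNG3 0.44, GNG8 0.29, GNG10 0.74, GNG11 0.60, ADCY4 0.44, ADCY5 0.76, ADCY7 0.17, ADCY8 0.71, ADCY9 0.29, ADCY10 0.85, PRKACA 0.16, DRD2 0.72, PKIA 0.00825, GRK4 0.19 and GRK6 0.38. The added 0.87 is the construction of that scaling. Elsewhere ADCY10 gave 0.0125 after quantile normalization and 0.00719 with the brightness trend removed. PRKAR1A gave -0.0822 and -0.0894 there, and -0.16 as the mean of its probe sets. With array weights ADCY2 gave -0.00354, DRD1 -0.12 and DRD4 -0.00446. Lower Gβ genes numbered 2 with the replicate block, quantile normalization, trend removal, the filter on the dimmest genes and the robust prior, and 3 with array weights. Lower PKA genes numbered 2 under all of these 6. Higher PKA genes numbered 1 after quantile normalization and trend removal, and lower adenylyl cyclases 1 with the robust prior. The replicate block gave 3 higher and 14 lower members, adding GNB5 and PRKACA and changing no other call of a member. Without the dimmest genes, medians were -0.46 for all members, -0.79 for Gγ and -0.58 for adenylyl cyclases, over fewer genes. GNAO1 over GNAI1 changed by -1.70 after quantile normalization and -1.63 with the trend removed. Leaving out 1 array or both arrays of a passage gave 526 to 3227 higher and 495 to 2240 lower genes, and 0 to 4 higher and 5 to 14 lower members. Lower genes numbered 2 to 5 (Gα), 0 to 3 (Gβ), 1 to 2 (adenylyl cyclases) and 0 to 1 (PKA), and higher genes 0 to 1 (Gγ and adenylyl cyclases) and 0 to 2 (PKA). Medians were -0.44 to -0.26 (all members), -0.37 to -0.0266 (adenylyl cyclases) and -0.0690 to 0.38 (PKA). Differences on both sides of 0 were GNAL -0.28 to 0.00123, GNG10 -0.27 to 0.0886, GNG11 -0.52 to 0.13, ADCY10 -0.15 to 0.0749, ADCY2 -0.14 to 0.21, ADCY5 -0.65 to 0.25, PRKAR1A -0.26 to 0.23, DRD1 -0.42 to 0.48, DRD2 -0.40 to 0.12 and DRD4 -0.10 to 0.18. Apart from the scaling itself, the cause was not tested. No member that passed was called in the opposite direction under these settings. Dim signals limit the adenylyl cyclases other than ADCY1 and the dopamine receptors. The signs of pathway and marker genes under that scaling were counted as an alternative chosen after seeing the data. Protein identity between related members was planned and not run, since protein sequences were not used here.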
